A study of Mus musculus with 75 samples.

Results

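The repressive Polycomb genes described here are Ezh1, Ezh2, Eed and Suz12 of Polycomb repressive complex 2 (PRC2) and Bmi1, Cbx2, Cbx7, Cbx8, Ring1 and Rnf2 of Polycomb repressive complex 1 (PRC1). They were taken from a fixed list of 10 genes, all of which were found by symbol among the 24984 genes of every RNA-seq count file and all of which passed the filter on low counts in each experiment. The study followed replicative senescence (RS), the growth arrest that primary cells reach after repeated division, in mouse skin fibroblasts. RNA-seq was available for 44 libraries and ATAC-seq, which maps open chromatin, for 13 samples.

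The passage series consisted of 16 RNA-seq libraries, 4 at each of passages 1, 3, 5 and 7 (P1, P3, P5 and P7), from skin fibroblasts of 2-month-old female C57BL/6 mice, with P7 as the senescent stage. ATAC-seq covered the same passages, with 4 samples at P1 and 3 at every later passage. The other experiments manipulated transcription factors, by E2f4 overexpression, E2f4 knockdown, Tead1 knockdown and Atf3 knockdown. In the overexpression experiment, 2 libraries carried E2f4 from a doxycycline-inducible lentivirus and 2 control libraries carried the EGFP vector under the same culture. In its results the paper places these pre-senescent cells at P4, whereas its methods name a later passage for senescence interventions. In the knockdowns, cells carried lentiviral hairpins under puromycin selection, with 3 libraries each of E2f4 sh1, Tead1 sh3, Tead1 sh4, Atf3 sh5 and Atf3 sh6 and 3 libraries of a non-targeting hairpin (nt) in each experiment. The manipulated cells were primary fibroblasts of 2-month-old or newborn mice, and the labels do not give which of these ages a library came from. The paper gives P3 for the proliferating cells of the E2f4 knockdown, and its results describe the cells of the Atf3 knockdown as pre-senescent. E2F4 is a cell cycle regulator of the E2F family, TEAD1 is the DNA-binding partner of YAP and TAZ, and ATF3 is a stress-induced member of the AP-1 family.

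PRC2 methylates lysine 27 of histone H3 through EZH2 or its paralog EZH1, with SUZ12 as the scaffold and EED as the subunit that binds the methylated tail. PRC1 reads this mark through chromodomain proteins of the CBX family and ubiquitinates histone H2A through RING1 or RNF2, which act together with a PCGF protein such as BMI1. In proliferating fibroblasts both complexes are known to keep the Ink4 locus silent, which holds Cdkn2a, encoding the cell cycle inhibitor p16 and the p53 activator ARF, and Cdkn2b, encoding p15. The counts of Cdkn2a do not separate p16 from ARF, since reads were counted per gene.

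The promoters of 9 of the 10 genes were found in the promoter table of RefSeq on GRCm38.p6, as windows from 250 bases before to 50 bases after the start site, and Cbx2 had no entry. The windows of Ezh2, Suz12 and Ezh1 are shown because Ezh2 and Suz12 had the largest decreases from P3 to P7, whereas Ezh1 is the paralog of Ezh2 that did not fall. Capitals mark letters bound by E2F proteins, searched as TTCCCGC, then as the variants TTCGCGC, as well as TTGCCGC, and finally TTGGCGC, and the cell cycle homology region CHR, searched as TTTGAA and with the variant TTCGAA. They are printed in the strand of the gene, and a match on the other strand appears as its complement.
Ezh2 promoter, chr6:47594981-47595280, minus strand: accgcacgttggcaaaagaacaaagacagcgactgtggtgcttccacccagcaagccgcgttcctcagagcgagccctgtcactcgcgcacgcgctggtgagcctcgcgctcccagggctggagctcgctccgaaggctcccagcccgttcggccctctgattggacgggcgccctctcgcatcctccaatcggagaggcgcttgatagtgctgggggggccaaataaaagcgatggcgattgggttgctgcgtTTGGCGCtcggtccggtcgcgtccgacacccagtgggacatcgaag
Suz12 promoter, chr11:79992856-79993155, plus strand: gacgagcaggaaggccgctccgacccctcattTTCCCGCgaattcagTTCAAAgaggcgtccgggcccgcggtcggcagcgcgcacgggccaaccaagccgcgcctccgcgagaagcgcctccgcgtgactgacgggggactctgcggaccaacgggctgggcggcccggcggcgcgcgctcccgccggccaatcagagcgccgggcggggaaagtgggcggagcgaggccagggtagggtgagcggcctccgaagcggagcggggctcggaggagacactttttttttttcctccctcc
Ezh1 promoter, chr11:101226414-101226713, minus strand: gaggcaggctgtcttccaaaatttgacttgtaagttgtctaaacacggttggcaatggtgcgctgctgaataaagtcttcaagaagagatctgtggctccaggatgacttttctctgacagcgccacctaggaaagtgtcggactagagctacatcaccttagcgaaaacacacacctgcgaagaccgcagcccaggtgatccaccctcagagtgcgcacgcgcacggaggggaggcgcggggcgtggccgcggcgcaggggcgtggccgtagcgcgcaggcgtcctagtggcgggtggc

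Among the 9 promoters, only those of Ezh2 and Suz12 held an E2F match in this window. Counted with the start base as 0, the Ezh2 match, TTGGCGC, began at position 4, and the Suz12 match, TTCCCGC, began at -218, followed by a CHR match on the other strand at -203. CHR letters were also found in Eed, where they occurred 2 times, and in Cbx7. The letters CCAAT, bound by NF-Y, occurred on either strand in Ezh2 (3 times), Eed, Suz12, Cbx7 and Cbx8 (2 times). An AP-1 match (TGAGTCA, or the variant TGACTCA) was in none of the 9 windows, and a TEAD match (CATTCC) was in Bmi1. Of 32851 promoters of the same length, 9.57% held an E2F match, 19.2% a CHR match, 37.4% CCAAT, 5.2% an AP-1 match and 14.7% a TEAD match, searched on both strands. The Ezh2 and Suz12 windows contain 64.3% and 71% GC against a median of 52.7%, and among the 9690 promoters with at least 60% GC the share with an E2F match was 19.9%. These matches describe the letters of the window and not binding.

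In the count data the total per library lay between 9147324 and 27552949 counts. Values are CPM, counts scaled to the same total over the tested genes, with the TMM method of edgeR. The 8 fibroblast markers (Col1a1, Col1a2, Col3a1, Dcn, Lum, Pdgfra, Pdgfrb and Thy1) summed to between 19161 and 21493 CPM at P1, 27309 and 33508 CPM at P3, and 31605 and 33903 CPM at P7. The P1 libraries also carried markers of other skin cells. The 7 macrophage markers summed to 299.9 to 451.2 CPM at P1, 42.1 to 60.7 at P3 and 35.7 to 51.2 at P7, and the 6 keratinocyte markers to 43.9 to 307.0 CPM at P1, 1.37 to 2.76 at P3 and 2.45 to 3.44 at P7. The 6 skeletal muscle markers summed to 106.4 to 176.7, 9.16 to 13.7 and 1.63 to 3.07 CPM, and the 5 endothelial markers to 131.6 to 138.3, 35.3 to 39.8 and 7.33 to 10 CPM, in the same order. The 4 adipocyte markers summed to 13.5 to 17.8, 10.8 to 16.6 and 6.31 to 9.01 CPM. Markers of Schwann cells and melanocytes, 6 in number, did not fall from P1 to P3 (65.5 to 75.5, 77.3 to 91.3 and 59 to 134.9 CPM). Krt15 was at 0 in every P1 library, and Myod1, Myog and Actn2 in every P7 library. The part of these cells in changes from P1 was not tested, and the changes of the members and lists are therefore also given from P3.

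As context, Cdkn2a rose at every step of the series. It was at 7.12, 8.22, 7.25 and 9.65 CPM in the 4 libraries of P1, at 16.3 to 25.1 CPM at P3, at 64.4, 72.7, 102.1 and 165.5 CPM at P5, and at 179.5 to 268.9 CPM at P7, so that no 2 passages overlapped. Its log2 fold change from P1 to P7 was 4.79 ± 0.26 (SE), with an adjusted p of 1.26e-11 by edgeR, and that from P3 to P7 was 3.39 ± 0.24 (adjusted p = 1.01e-09). Cdkn2b rose as well, from 14.7 ± 3.22 (SD, n = 4) to 54.5 ± 6.21 CPM, a log2 fold change of 1.89 ± 0.17 (SE, adjusted p = 1.71e-08), and rose 2.21-fold from P3 to P7 (adjusted p = 1.65e-05).

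From P1 to P7, 7 of the 10 Polycomb genes changed at an adjusted p under 0.05, of which 6 fell and Ezh1 rose. Over all 13442 genes tested, 62.5% were called in this comparison, 31.9% lower and 30.5% higher, so the share of members called was near that of all genes, whereas the members were mostly called in 1 direction. Their median log2 fold change was -0.40, beside -0.01 for all genes tested. With a fold over 2 required as well, 4 members (Ezh2, Suz12, Cbx2 and Cbx7) were called, against 21.4% of all genes. In bulk RNA, fewer cells that express a gene and less RNA per cell cannot be told apart. From P3 to P7, which leaves out the P1 libraries, 5 members were called and all 5 were lower, where 51.3% of all genes were called, 26.5% lower and 24.8% higher.

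**Figure D1:**
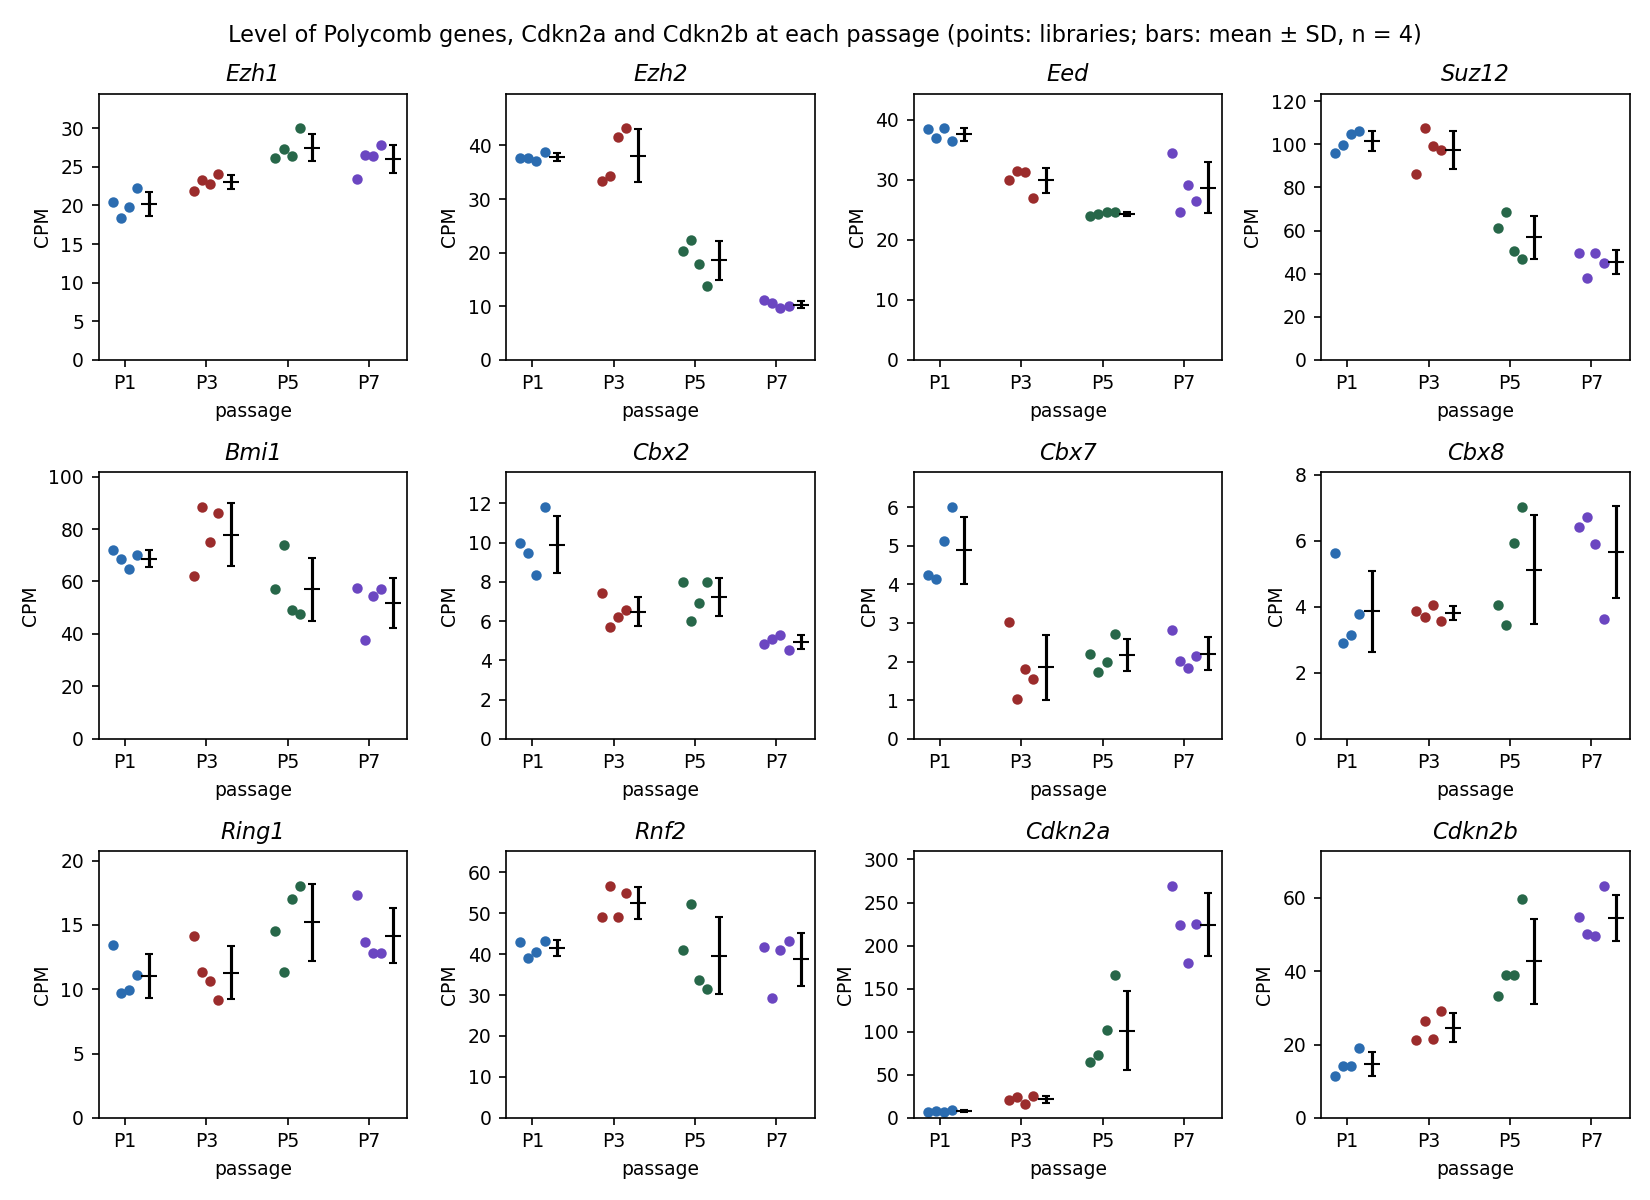
CPM of the 10 Polycomb genes, Cdkn2a and Cdkn2b (vertical axes, each starting at 0) in the 4 libraries of P1, P3, P5 and P7 (points), with the mean ± SD (bars). Ezh2 lies between 9.61 and 11.1 CPM at P7, below every library of P1 and P3, whereas Ezh1 is at 23.4 CPM or more at P7.

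Ezh2 (chr6:47530274-47595270, minus strand, GRCm38), the catalytic subunit of PRC2 in dividing cells, had the largest change among the members. It was at 37.7, 37.6, 37.1 and 38.8 CPM at P1, at 33.4, 34.2, 41.5 and 43.2 CPM at P3, at 20.3, 22.3, 17.9 and 13.8 CPM at P5, and at 11.1, 10.6, 9.61 and 9.95 CPM at P7. P1 and P3 overlapped, whereas all libraries of P5 were below those of P3 and all libraries of P7 were below those of P5. The log2 fold change was 0.01 from P1 to P3 (adjusted p = 0.959), -1.03 ± 0.12 (SE) from P3 to P5 (adjusted p = 9.84e-06) and -0.85 ± 0.13 from P5 to P7 (adjusted p = 0.000166). From P1 to P7 the level fell by 1.87 on the log2 scale (adjusted p = 2.98e-10), which left 0.273 of the P1 level, and from P3 to P7 by 1.88 ± 0.13 (adjusted p = 8.80e-10).

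Suz12 (chr11:79993106-80034123, plus strand), the scaffold of PRC2, was at 95.9 to 106.2 CPM at P1 and at 86.2, 107.5, 99.2 and 97.4 CPM at P3. It was at 61.4, 68.8, 50.6 and 46.7 CPM at P5 and at 49.8, 37.8, 49.6 and 44.8 CPM at P7. P3 and P5 did not overlap, whereas P5 and P7 did. The log2 fold change was -0.78 ± 0.11 from P3 to P5 (adjusted p = 8.00e-05), -0.32 from P5 to P7 (adjusted p = 0.063) and -1.16 ± 0.12 from P1 to P7 (adjusted p = 5.00e-08). From P3 to P7 it was -1.10 ± 0.12 (adjusted p = 3.11e-07). The change from P5 to P7 passed the threshold without replicate 3 or replicate 4 of P5 (-0.37 and -0.40, adjusted p = 0.0483 and 0.0171). It also did so with the correction for GC content that is described with the E2f4 overexpression (-0.30, adjusted p = 0.00275).

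Eed (chr7:89954654-89980976, minus strand), which binds the H3K27 mark, followed another course. It was at 36.5 to 38.6 CPM at P1, 27 to 31.5 CPM at P3, 23.9 to 24.6 CPM at P5, and 34.4, 24.7, 29.1 and 26.4 CPM at P7. It fell in the first 2 steps, by 0.33 ± 0.09 (adjusted p = 0.0113) and by 0.30 ± 0.10 on the log2 scale (adjusted p = 0.0253). The first missed the threshold without replicate 4 of P3 (-0.28, adjusted p = 0.0541), and the second without replicate 2 or 3 of P3 or replicate 3 of P5 (adjusted p = 0.0543 to 0.0723). From P1 to P7 it fell by 0.39 ± 0.10 (adjusted p = 0.00136). The change from P5 to P7 was 0.24 (adjusted p = 0.102), and that from P3 to P7 was -0.06 (adjusted p = 0.601).

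Ezh1 (chr11:101191115-101226463, minus strand), the paralog of Ezh2 that predominates in resting cells, was at 20.5, 18.4, 19.8 and 22.2 CPM at P1 and at 23.4, 26.5, 26.4 and 27.8 CPM at P7. The P7 libraries were all above those of P1, with a log2 fold change of 0.37 ± 0.09 (adjusted p = 0.00156). The step from P3 to P5 was 0.26 ± 0.09 (adjusted p = 0.0358), which missed the threshold when any of 5 of the 8 libraries was left out (log2 fold changes of 0.21 to 0.28). From P3 to P7 the change was 0.18 (adjusted p = 0.0996), and it was 0.23 without replicate 1 of P7 (adjusted p = 0.0424).

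The 2 catalytic subunits were therefore compared within each library, as the log2 ratio of Ezh1 to Ezh2 after division of both by the length of their merged exons (4207 and 2667 bases). The log2 ratio was -1.54, -1.69, -1.57 and -1.47 at P1, -1.52 to -1.22 at P3, -0.29, -0.37, -0.10 and 0.46 at P5, and 0.42, 0.66, 0.80 and 0.83 at P7. Per kilobase, Ezh1 was at 0.338 of the level of Ezh2 at P1 and at 1.6 times its level at P7. The ratio was above 0 in 4 of 4 libraries at P7 and in 1 of 4 at P5, the library that also had the lowest Ezh2 (13.8 CPM) and the highest Cdkn2a (165.5 CPM) of its passage.

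**Figure D2:**
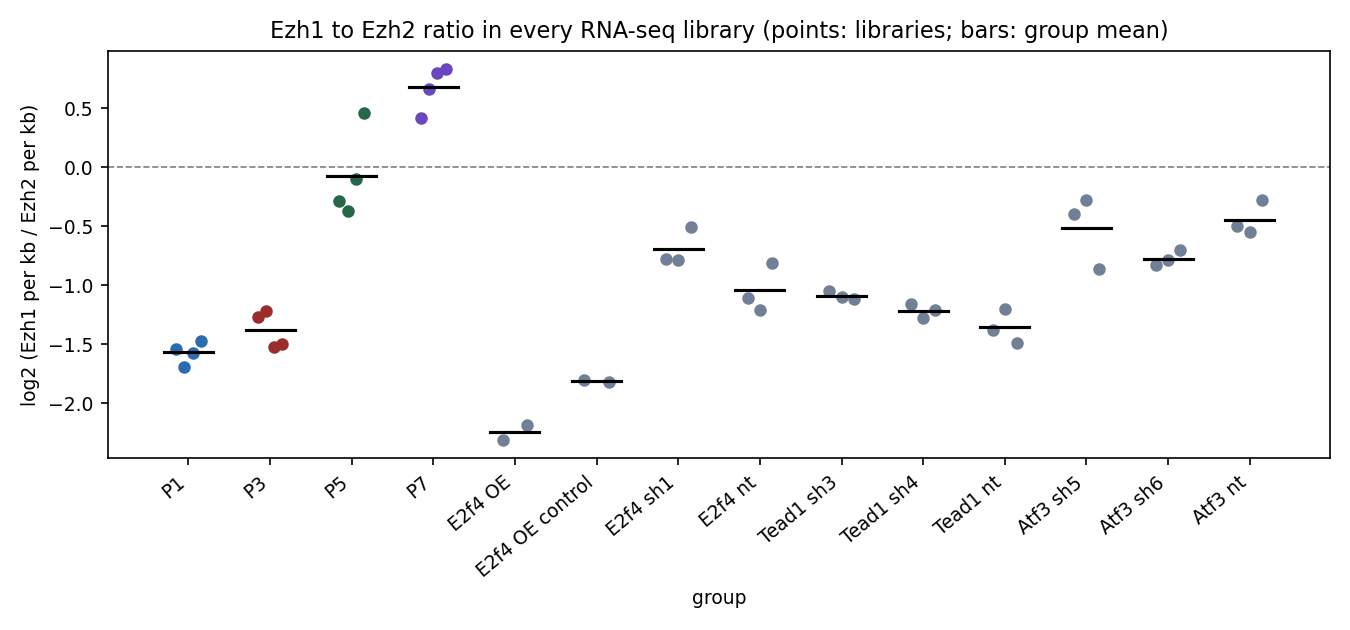
Log2 ratio of Ezh1 to Ezh2 per kilobase of exon (vertical axis) in each of the 44 RNA-seq libraries (points), with group means (bars). Only 5 libraries lie above 0 (dashed line), the 4 of P7 (0.42 to 0.83) and 1 of P5 (0.46).

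Among the PRC1 genes, Bmi1 (chr2:18677018-18686629, plus strand), the PCGF protein known as a repressor of Cdkn2a, was at 64.7 to 72 CPM at P1, 62.2, 88.3, 75.1 and 86 CPM at P3, 57.3, 73.8, 49.2 and 47.6 CPM at P5 and 57.6, 37.5, 54.6 and 57.2 CPM at P7. All libraries of P7 were below those of P3 and P1. It fell by 0.59 ± 0.15 on the log2 scale from P3 to P7 (adjusted p = 0.00227) and by 0.41 ± 0.15 from P1 to P7 (adjusted p = 0.019). Without replicate 2 of P7, the lowest library, the latter was -0.28 (adjusted p = 0.0827).

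The chromodomain genes lie at lower levels. Cbx2 (chr11:119023019-119031275, plus strand) was at 10, 9.45, 8.34 and 11.8 CPM at P1 and at 4.81, 5.09, 5.3 and 4.53 CPM at P7, without overlap, and fell by 1.00 ± 0.15 on the log2 scale (adjusted p = 8.07e-06). From P3 to P7 the change was -0.39 ± 0.15 (adjusted p = 0.0362), which missed the threshold when any of 6 of the 8 libraries was left out (adjusted p = 0.0508 to 0.111). With the correction for GC content that is described with the E2f4 overexpression, this change was -0.60 (adjusted p = 0.00165). Cbx7 (chr15:79915804-79971143, minus strand), known for repressing the Ink4 locus in fibroblasts, was at 4.25, 4.15, 5.13 and 6 CPM at P1 and at 3.02, 1.03, 1.81 and 1.54 CPM at P3. Its decrease took place between these 2 passages, by 1.39 ± 0.26 on the log2 scale (adjusted p = 0.00037). The macrophage, keratinocyte, skeletal muscle and endothelial markers also fell between them, whereas the Schwann cell and melanocyte markers did not. From P3 to P7 the change of Cbx7 was 0.25 (adjusted p = 0.474), on 15 to 46 counts per library at P3 and 24 to 37 at P7. The gene span of Cbx7 overlaps that of Apobec3 on the other strand without shared exons. The exons of Cbx2 overlap those of Gm35829 on the other strand. With counting that ignored strand, reads of Cbx2 and Gm35829 cannot be told apart where these exons overlap.

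Cbx8 (chr11:119036303-119040913, minus strand), the neighbour of Cbx2, was at 5.62, 2.92, 3.14 and 3.77 CPM at P1 and at 6.41, 6.71, 5.92 and 3.64 CPM at P7. These groups overlapped, and the log2 fold change of 0.55 had an adjusted p of 0.0575, and that from P3 to P7 of 0.57 one of 0.0592. Left out singly, replicate 1 of P1 and replicate 4 of P7 each brought the change past the threshold (0.79 and 0.72, adjusted p = 0.0115 and 0.0141), and replicate 4 of P7 also that from P3 (0.74, adjusted p = 0.0158). DESeq2 called the changes from P1 and from P3 (0.55 and 0.58, adjusted p = 0.0497 and 0.0442). With only the 2 groups compared, that from P3 was also called (0.59, adjusted p = 0.0262). With the correction for GC content that is described with the E2f4 overexpression, the changes from P1 and from P3 were 0.45 and 0.38 (adjusted p = 0.0751 and 0.157).

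The 2 ubiquitin ligases gave no call from P1 to P7 in the main fit. Ring1 (chr17:34020792-34024680, minus strand) was at 9.72 to 13.4 CPM at P1 and at 12.8 to 17.3 CPM at P7, with a log2 fold change of 0.36 (adjusted p = 0.0654), and of 0.32 from P3 to P7 (adjusted p = 0.108). These passed the threshold without replicate 1 of P1 (0.47, adjusted p = 0.0267) and without replicate 1 of P3 (0.45, adjusted p = 0.0376). The change from P1 also passed it with a replicate block (0.36, adjusted p = 0.0449) and with only the 2 groups compared (0.38, adjusted p = 0.0323). With the GC correction the changes of Ring1 from P1 and from P3 were 0.21 and 0.01 (adjusted p = 0.142 and 0.935). Rnf2 (chr1:151469398-151500991, minus strand) was at 39.1 to 43.3 CPM at P1, at 49.1 to 56.6 CPM at P3 and at 41.8, 29.2, 41 and 43.1 CPM at P7. From P3 to P7 it fell by 0.43 ± 0.14 on the log2 scale (adjusted p = 0.0125), which became -0.32 (adjusted p = 0.0538) without replicate 2 of P7.

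By step, 3 members were called from P1 to P3 (Eed, Cbx2 and Cbx7, all lower), 6 from P3 to P5 (Ezh2, Eed, Suz12, Bmi1 and Rnf2 lower, Ezh1 higher) and 2 from P5 to P7 (Ezh2 and Cbx2, lower). The shares of all genes called were 33.4%, 28.7% and 16.8% in these steps. The count of 6 was the most above that background, and it was 2 without replicate 2 of P3 or replicate 3 of P5, 3 without replicate 4 of P5, and 7 at most. With the GC correction, described with the E2f4 overexpression, it was also 2, and Ezh1, Eed, Bmi1 and Rnf2 were at 0.20, -0.23, -0.12 and -0.12 (adjusted p = 0.083, 0.0838, 0.255 and 0.277). Ezh2 and Suz12 were the 2 members called under each of these. The shares of all genes called under these alternatives are not given here.

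The levels of the members were also ranked per kilobase of merged exons. At P1 the order was Suz12 (23.3 CPM per kb), Bmi1 (19.1), Eed (18.3), Ezh2 (14.2), Rnf2 (10.5), Ring1 (5.42), Ezh1 (4.8), Cbx8 (2.77), Cbx2 (2.63) and Cbx7 (1.69), where the library ranges of Bmi1 and Eed, of Ring1 and Ezh1 and of Cbx8 and Cbx2 overlapped. At P7 Bmi1 (14.4 CPM per kb) and Eed (13.9) came first with overlapping ranges, followed by Suz12 (10.4), Rnf2 (9.83), Ring1 (6.95) and Ezh1 (6.19), where neighbours in this order overlapped. Ezh2 had moved from the fourth place to the eighth, at 3.87 CPM per kb, where it overlapped Cbx8 (4.07) but lay above Cbx2 (1.31) and Cbx7 (0.763).

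The genes most alike to each member over the 16 passage libraries were taken by Pearson correlation of log2 CPM among 11541 genes. They share the same libraries, and the log2 CPM were not corrected for GC content, so the coefficients are a description. Ezh2 was closest to Kif23 and Cenpf, which act in cell division, and to Dis3, at r = 0.99 each, and Suz12 to Xpo1, Pds5b and Lin9 at r = 0.99. Bmi1 was closest to Gpbp1, Cul5 and Arid4b (0.97), and Rnf2 to Ireb2 and Zbtb1 (0.96) and Prkaa1 (0.94). Ezh1 was closest to Ttc38, Add1 (0.95) and Man2b2 (0.94), and Eed to Lum, Cisd2 and Fgl2 (0.94, 0.93 and 0.92). Cbx2 was closest to Zmiz2, Sorbs3 (0.94) and Aqp1 (0.92), Cbx7 to Crabp1 (0.93), Safb2 and Tmem158 (0.92), Cbx8 to Zfp580, Jund and Csnk1g2 (0.88), and Ring1 to Nsmce1 (0.91), Fbxw4 and Atp5g2 (0.90).

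Proliferation genes changed in the same libraries. Of 16 listed, all 16 fell from P1 to P7 with a median log2 fold change of -2.40, beside -0.40 for the members, and 15 fell from P3 to P7, with a median of -1.86. The proliferation marker Mki67 fell from 323.4 ± 10.2 to 20.8 ± 3.37 CPM (SD, n = 4), the cyclins Ccna2 and Ccnb1 by 3.25 and by 2.86 on the log2 scale, topoisomerase Top2a by 3.17, and the replicative helicase genes Mcm5 and Mcm3 by 3.17 and by 2.79. From P1 to P3, where Ezh2 gave no call, 10 of the 16 were called, all lower, with a median of -0.38. The part of the lower proliferation in the decrease of the members was not tested.

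Other subunits were counted from fixed lists. Of 8 further PRC2 subunits, 6 were called from P1 to P7, 5 lower and 1 higher, with a median of -0.41, and 5 from P3 to P7, 4 lower and 1 higher, with a median of -0.30. The background of all genes called was 62.5% and 51.3% in these comparisons, and the shares called on this and the following lists of subunits and opposing genes lay near it. Phf19, a Polycomb-like accessory subunit, fell from 19.7 ± 2.11 CPM at P1 to 2.46 ± 0.559 at P7 (adjusted p = 2.51e-11), and Mtf2, another Polycomb-like subunit, from 34.5 ± 3.49 to 16.3 ± 2.13 CPM (-1.08 ± 0.12, adjusted p = 1.76e-07). Of 19 further PRC1 subunits, 12 were called, 8 lower and 4 higher, with a median of -0.22, and 10 from P3 to P7, 9 lower and 1 higher, with a median of -0.19. Scml2 (-2.39 ± 0.39) and Auts2 (-1.88 ± 0.16) had the only folds over 2 on this list. Of 11 genes that oppose Polycomb, as demethylases, deubiquitinases, or subunits of remodelling and H3K4-methylating complexes, 7 were called, 6 lower and 1 higher, with a median of -0.34, and 6 from P3 to P7, all lower, with a median of -0.33. Asxl3, a cofactor of the deubiquitinase BAP1, fell from 3.48 ± 1.17 to 0.74 ± 0.329 CPM (-2.22 ± 0.32).

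**Figure D3:**
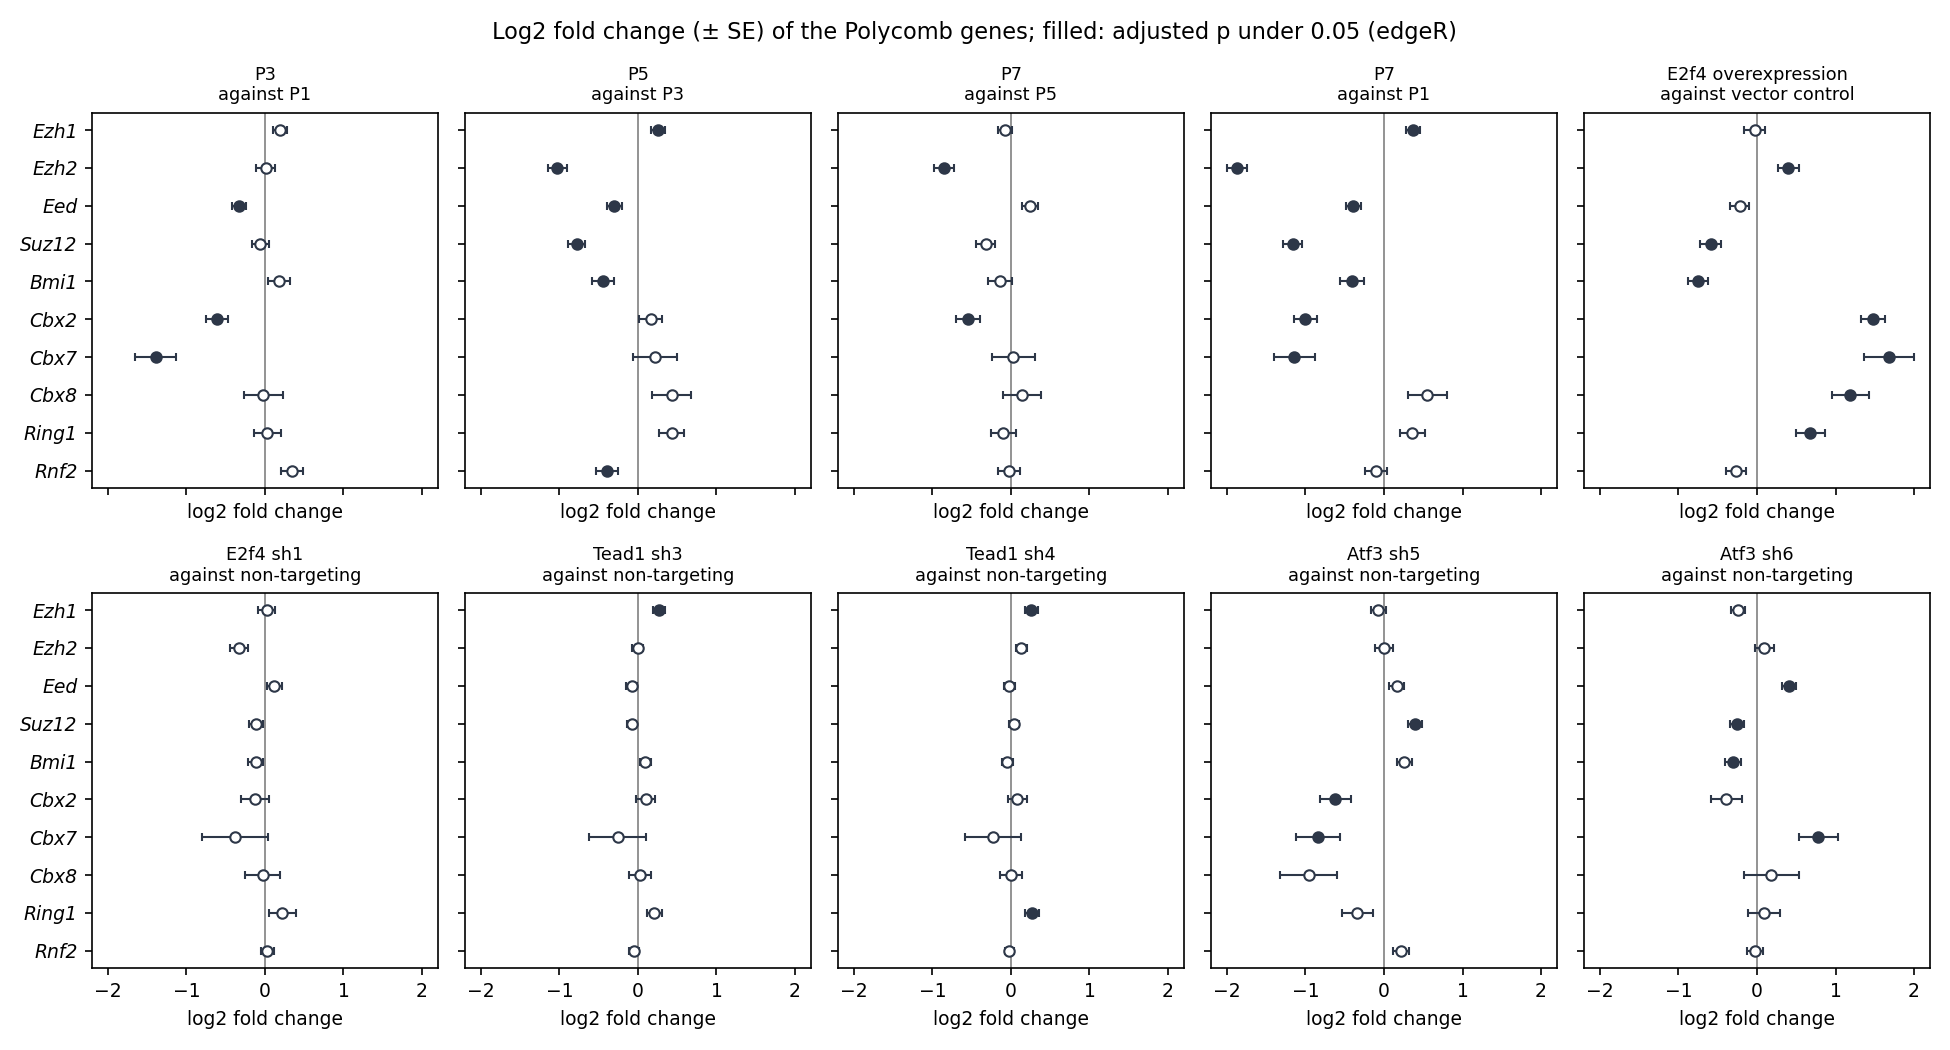
Log2 fold change ± SE (horizontal axes) of the 10 Polycomb genes in 10 comparisons, with filled points for an adjusted p under 0.05 by edgeR. Ezh2 is at -1.87 for P7 against P1 and at 0.40 under E2f4 overexpression, and the Tead1 panels hold no value beyond 0.27 in size.

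In the overexpression experiment, E2f4 itself was at 1118 and 1180 CPM against 35.5 and 47.5 CPM in the control, counts that include the transgene, with a log2 fold change of 4.79 ± 0.15 (adjusted p = 7.07e-08). Of the 10 members 7 were called, where 57.2% of all 13199 genes were, 28.9% higher and 28.2% lower, so their share was near the background. The 3 chromodomain genes, Ezh2 and Ring1 were higher, and Suz12 and Bmi1 were lower. Cdkn2a was at 28.6 and 26.1 CPM against 48.5 and 49 CPM, a decrease by 0.83 ± 0.12 on the log2 scale (adjusted p = 0.000205), and Cdkn2b fell by 0.72 ± 0.12 (adjusted p = 0.000622).

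Ezh2 was at 65.7 and 54.9 CPM with E2f4 overexpression and at 47.3 and 43.9 CPM in the control. The 2 groups did not overlap, with a log2 fold change of 0.40 ± 0.13 (adjusted p = 0.0177), but without replicate 1 of the overexpression it was 0.27 (adjusted p = 0.262). Per kilobase of exon, Ezh2 was the highest of the 10 members with E2f4 overexpression (22.6 CPM per kb, next Eed at 16.7, without overlap) and the fourth in the control (17.1). Cbx2 was at 24.6 and 28.2 CPM against 9.21 and 9.68 CPM (1.48 ± 0.15, adjusted p = 2.55e-05), Cbx7 at 2.65 and 2.82 against 0.786 and 0.922 CPM (1.68 ± 0.32, adjusted p = 0.00115), and Cbx8 at 5.56 and 7.07 against 2.49 and 3.05 CPM (1.19 ± 0.23, adjusted p = 0.00134). All 3 chromodomain genes rose by more than 2-fold, although the control level of Cbx7 rested on 16 and 18 counts. Ring1 was at 14.8 and 18.7 against 8.99 and 11.9 CPM (0.68 ± 0.18, adjusted p = 0.00799). Suz12 was at 74.1 and 60.2 against 105.2 and 96.8 CPM (-0.59 ± 0.13, adjusted p = 0.00251), and Bmi1 at 55.4 and 47.4 against 94.8 and 78.4 CPM (-0.75 ± 0.13, adjusted p = 0.000735). Without replicate 2 of the overexpression, Suz12 was at -0.44 (adjusted p = 0.0523) and Ring1 at 0.51 (adjusted p = 0.0614).

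Exonic GC content moved with this comparison. Across the tested genes, the Spearman coefficient of the log2 fold change with GC content was 0.57, and the median log2 fold change was -0.83 in genes below 42% GC and 0.64 in genes above 58.3% GC, the outer 10% of genes on each side. The members split in the same way, since Bmi1, Suz12 and Rnf2 have 40.2%, 41.6% and 41.5% GC and Cbx2, Cbx7, Cbx8 and Ring1 have 57.1%, 56.9%, 56.3% and 60.7%. With a GC correction added after the data were seen, the log2 fold change of Suz12 was 0.03 (adjusted p = 0.752), of Bmi1 0.01 (adjusted p = 0.89) and of Ring1 0.03 (adjusted p = 0.885), whereas Rnf2 turned from -0.27 to 0.37 (adjusted p = 0.019). Ezh2, with 44.8% GC, was at 0.73 (adjusted p = 9.64e-05), and Cbx2, Cbx7 and Cbx8 were at 1.00, 1.22 and 0.75 (adjusted p = 9.07e-05, 0.00774 and 0.0122). Thus Ezh2 and the 3 chromodomain genes were called higher in both fits, whereas the changes of Suz12, Bmi1 and Ring1 were near 0 with the correction and that of Rnf2 was called higher. In the passage series the coefficient was -0.27 for P3 against P1, 0.44 for P5 against P3, 0.1 for P7 against P5 and 0.12 for P7 against P1. It was 0.34 for P7 against P3, where the corrected values of Ezh2 and Suz12 were -1.69 and -0.79 (adjusted p = 3.46e-10 and 1.03e-08). Those of Bmi1 and Rnf2 were -0.24 and -0.13 there (adjusted p = 0.0143 and 0.194), whereas that of Cbx2 was -0.60 (adjusted p = 0.00165), larger in size than as fitted.

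**Figure D4:**
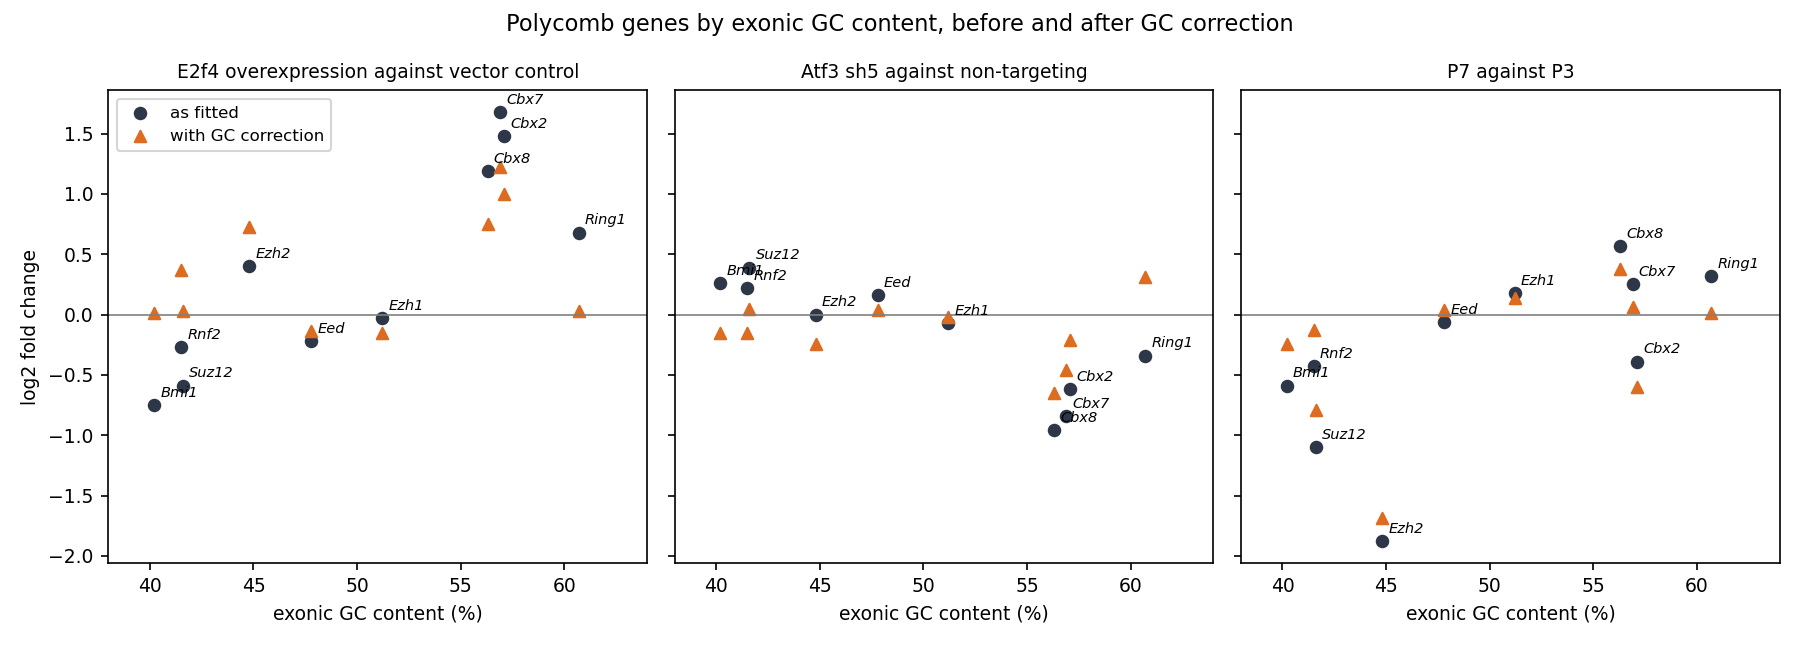
Log2 fold change (vertical axis) against exonic GC content in percent (horizontal axis) of the 10 Polycomb genes as fitted (circles) and with the GC correction (triangles), in 3 comparisons. Under E2f4 overexpression Bmi1 moves from -0.75 to 0.01 and Ring1 from 0.68 to 0.03, whereas Ezh2 at P7 against P3 moves from -1.88 to -1.69.

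With E2f4 sh1, E2f4 was at 20.4 to 21.8 CPM against 59.6 to 60.8 CPM with the non-targeting hairpin (0.354 of the control level, adjusted p = 2.14e-07). None of the 10 members was called by edgeR, where 17.8% of 12310 genes were, and DESeq2 called 0 as well, with 1 member at an unadjusted p under 0.05. That member was Ezh2, at 25.7, 23.8 and 20.7 CPM against 31.6, 30.8 and 25.8 CPM, with a log2 fold change of -0.33 and an adjusted p of 0.0656. All libraries of E2f4 sh1 were below those of the control for Ezh2, and without replicate 1 of E2f4 sh1 the value was -0.40 (adjusted p = 0.0433). The proliferation list had 10 of 16 genes called, all lower, with a median of -0.41. Cdkn2a was at 52.7 to 62.3 CPM against 62.4 to 63.9 CPM (-0.16, adjusted p = 0.214). Replicate 1 of the non-targeting libraries had 18352 genes detected against 14984 and 15510 in replicates 2 and 3. The count of members called was also 0 without it.

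Tead1 fell by 0.96 with sh3 and by 0.78 with sh4 on the log2 scale. Of the members, 1 was called with sh3 and 2 with sh4, where 35.4% and 29.1% of 13012 genes were called. Ezh1 was at 19.9 to 20.9 CPM with sh3 and 19.8 to 21 CPM with sh4, above the 16.2, 18.1 and 16.3 CPM of the shared non-targeting libraries, with log2 fold changes of 0.27 ± 0.08 (adjusted p = 0.0132) and 0.26 ± 0.08 (adjusted p = 0.0173). Ring1 was at 18.1 to 21.1 CPM with sh4 against 15.1 to 17.5 CPM (0.27 ± 0.09, adjusted p = 0.0216), and at 18.9 to 19.4 CPM with sh3 (0.21, adjusted p = 0.0639). Leaving out replicate 1 or replicate 3 of the non-targeting libraries brought Ezh1 to 0.24 in both comparisons, with an adjusted p of 0.0541 to 0.0677, as did leaving out replicate 1 of sh4 (0.24, adjusted p = 0.0671). Ring1 with sh4 missed the threshold without replicate 2 of the non-targeting libraries or replicate 1 or 3 of sh4 (0.21 to 0.25, adjusted p = 0.0763 to 0.114). Between sh4 and sh3 edgeR and DESeq2 called 0 members, with 2 at an unadjusted p under 0.05, and 7.37% of all genes. By the sequences in the paper's supplement, sh3 and sh4 target the same stretch of Tead1 shifted by 1 base. They also share their control libraries, so they are not independent hairpins, and values alike in both do not separate an effect of Tead1 from one of the shared sequence. Cdkn2a was at 75 to 80.9 CPM with sh3, 68.2 to 81.3 CPM with sh4 and 77.2 to 85.3 CPM in the control, with no call.

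In the Atf3 experiment, replicate 3 of sh5 stood apart from the other 2 libraries of its group, since the chi-square statistic divided by its degrees of freedom was 55.9 and 59.9 against them and 3.2 between those 2. It had 15006 genes detected against 16035 and 16093. Atf3 was at 2.77 to 3.31 CPM in the control, 0.451 to 2.1 CPM with sh5 (log2 fold change -1.14 ± 0.39, adjusted p = 0.0447) and 1.51 to 2.09 CPM with sh6 (-0.79 ± 0.39, adjusted p = 0.114), so the decrease with sh6 did not pass the test although the libraries did not overlap. The fibroblast markers summed to 35554 to 37408 CPM in the control, 21511 to 34244 CPM with sh5 and 13612 to 14602 CPM with sh6, and their part in the results was not tested. With sh5 3 members were called and with sh6 4, where 35.9% and 49.8% of 13345 genes were called. With sh5 Suz12 was higher (71.2 to 79.7 CPM against 53.8 to 61.2 CPM, 0.39 ± 0.09, adjusted p = 0.00686), and Cbx2 and Cbx7 were lower, with log2 fold changes of -0.62 ± 0.20 and -0.84 ± 0.28 (adjusted p = 0.0357 and 0.0379). With sh6 Eed (44.9 to 47.8 CPM against 33.6 to 35.5 CPM, 0.41 ± 0.09, adjusted p = 0.0037) and Cbx7 (0.78 ± 0.25, adjusted p = 0.0243) were higher, and Suz12 and Bmi1 were lower (-0.26 ± 0.09 and -0.31 ± 0.10, adjusted p = 0.0313 and 0.023). Suz12 with sh5 and Eed with sh6 were past the threshold whichever library was left out, whereas each of the other 5 calls was lost without 1 of 3 to 5 libraries, with adjusted p values of 0.0522 to 0.135. Replicate 3 of sh5 was the lowest library of its group for Cbx2 (6.54 CPM) and Cbx7 (0.62 CPM), and without it their changes were -0.41 (adjusted p = 0.0522) and -0.58 (adjusted p = 0.111). Cdkn2a fell with both hairpins, from 70 to 78.3 CPM in the control libraries to 51.1, 51 and 31.9 CPM with sh5 and 43.8, 41 and 28.9 CPM with sh6 (log2 fold changes -0.74 ± 0.19 and -0.98 ± 0.19). The change with sh5 missed the threshold without replicate 2 of the control (-0.70, adjusted p = 0.0536), and the 31.9 CPM are from replicate 3 of sh5. Between sh6 and sh5 Cdkn2a gave no call (-0.24, adjusted p = 0.317). It was called lower with sh6 without replicate 3 of sh5 (-0.45, adjusted p = 0.00569) and with the GC correction (-0.64, adjusted p = 0.000179).

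Suz12 and Cbx7 were thus called in opposite directions by the 2 hairpins, which share their control libraries. Tested directly between sh6 and sh5, 5 members differed, where 52.6% of all genes did, so the share was near the background. With sh5 the Spearman coefficient of the log2 fold change with GC content was -0.66, with a median of 0.42 in the genes of lowest GC and -0.64 in those of highest GC, by the same bounds, whereas it was -0.12 with sh6. After the GC correction none of the members was called with sh5 by edgeR (Suz12 0.05, Cbx2 -0.21 and Cbx7 -0.46, adjusted p = 0.771, 0.277 and 0.199), and Cdkn2a was at -0.20 (adjusted p = 0.144). The share of all genes called with sh5 after the correction is not given here.

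In the ATAC-seq samples, each of the 10 promoters had a peak within 1000 bases of a start site in 13 of 13 samples. Since the peak lists hold no reads, the depth is unknown, and strength was taken as the percentile of the strongest such peak by -log10 p among all peaks of its sample. A percentile moves with the length of the list, which was 168982 to 186562 peaks at P1 and 200376 to 231558 at P7, without overlap. Ezh2, Suz12 and Cbx8 were the strongest, with means at P1 of 96.0, 95.8 and 98.0, and Cbx7, with a mean of 59.8, was the weakest. From P1 to P7, 2 of the 10 promoters had samples that did not overlap, against 46.2% of 14852 genes with a peak in every sample. With only the 142384 strongest peaks of each sample, the length of the shortest list, 1 promoter did, against 54% of 13594 genes.

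Suz12 was at 96.9, 97.4, 94.8 and 94.0 at P1 and at 98.4, 98.8 and 97.7 at P7 among all peaks (exact permutation p = 0.0857, two-sided). With equal numbers of peaks it was at 92.9 to 96.9 and 96.5 to 98.0, which overlapped (exact permutation p = 0.143), so no difference between the passages was shown for Suz12. Rnf2 was at 89.8, 89.8, 88.4 and 89.4 at P1 and at 85.4, 82.8 and 87.5 at P7 among all peaks, and at 84.7 to 87.7 and 72.1 to 80.6 with equal numbers. Its rank was lower at P7 in both, with an exact permutation p of 0.0286, the smallest that 4 against 3 samples allow. Ezh2 was at 94.9 to 96.8 at P1 and 96.0 to 97.4 at P7, an overlap that remained with equal numbers (exact permutation p = 0.286 and 0.886). The strongest peak at the 2 start sites of Cdkn2a was at rank percentiles of 92.6 to 96.3 at P1 and 84.2 to 92.1 at P7, and of 91.0 to 95.2 and 74.4 to 87.7 with equal numbers. Lower ranks at P7 were common among all genes, since 6269 of the 13594 genes were lower without overlap and 1071 higher with equal numbers of peaks, where the median change was -4.0. A rank among peaks does not give the accessibility of a promoter on a scale common to both passages, and a change in accessibility was not tested.

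**Figure D5:**
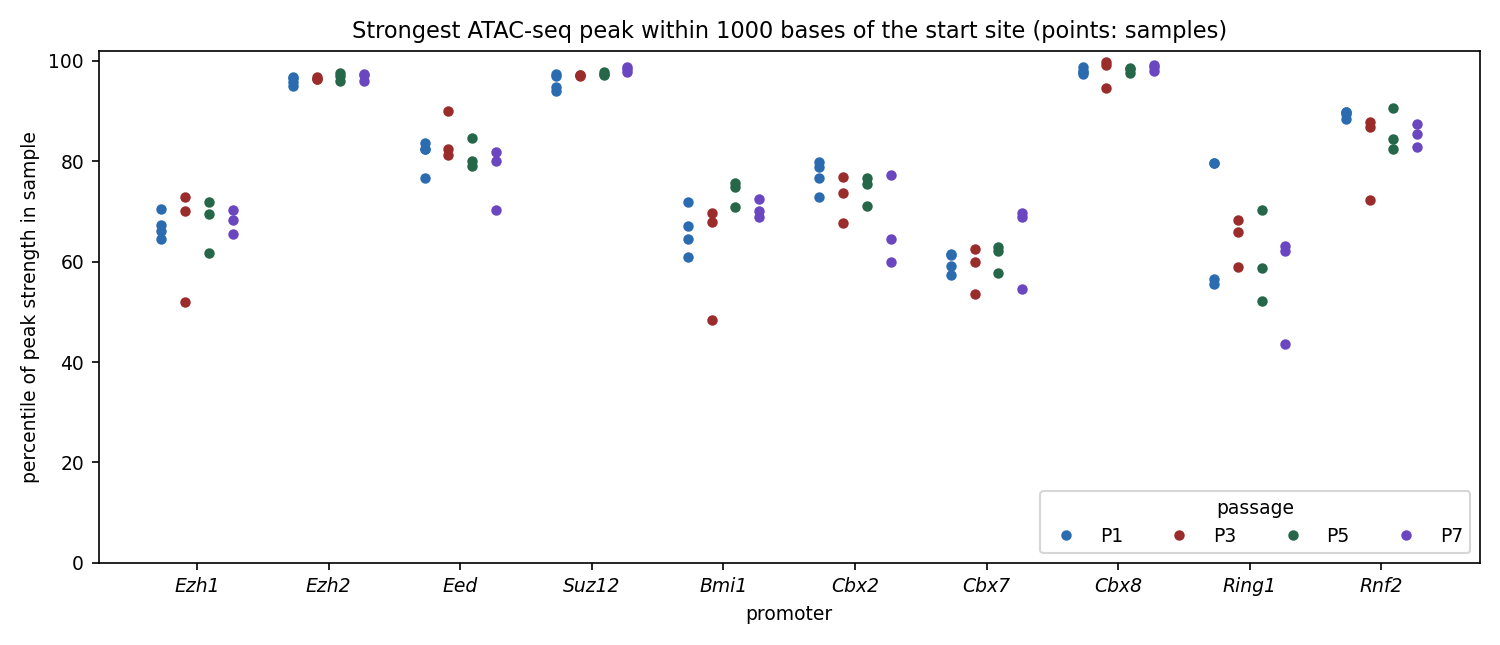
Percentile of the strongest ATAC-seq peak at each Polycomb promoter among the peaks of its sample (vertical axis), by passage, with 1 point per sample (4 at P1 and 3 at every later passage). Cbx8, Ezh2 and Suz12 lie highest at P1, with means of 98.0, 96.0 and 95.8, and the lists ranked are longer at P7 than at P1.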

How the data were processed

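Mouse skin fibroblasts were profiled by RNA-seq (44 libraries) and ATAC-seq (13 samples), and samples were grouped by the sample labels. According to the methods of the study, the authors trimmed RNA-seq reads (Trimmomatic 0.39), aligned these reads against mm10 (HISAT2 2.2.1) and obtained counts per gene that ignore strand (HTSeq 0.12.4). The deposited RNA-seq values are raw counts, not normalized, for 24984 genes. Rows that name no gene held 7.5% to 16.8% of the counts in 28 libraries and were left out. For ATAC-seq, the authors used the Kundaje lab pipeline with Bowtie2 and Picard and called peaks with MACS2 in each sample. The deposited peak lists give, for each peak, the fold enrichment (a ratio) and the -log10 of p and q within the sample, with no read counts. RRBS samples were not analysed here.

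The 5 RNA-seq experiments were modelled separately in edgeR 4.0.16 (R 4.3.3), with filterByExpr, TMM scaling, 1 coefficient per group, the quasi-likelihood test and Benjamini-Hochberg adjustment over all genes tested. A gene was called at an adjusted p under 0.05. SE is the log2 fold change divided by the square root of F. The fit was tested on simulated counts with known changes. Gene coordinates, exon lengths and GC content were taken from RefSeq GRCm38, the assembly of mm10. Exonic GC content was known for 97.8% of genes. Promoter sequences are RefSeq windows on GRCm38.p6, and other promoter or protein sequences were not used here. The ATAC-seq comparison used exact permutation tests over samples (35 splits).

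Genes named are the 10 members, Cdkn2a, Cdkn2b, the targeted genes, up to 6 genes of each list called with a fold over 2 from P1 to P7, and the 3 genes most alike to each member with an average log2 CPM of at least 1 (prior count 2). The members, lists, motifs and tests were chosen with earlier results of these data known. Alternatives were DESeq2 1.42.0, its size factors, other filters (none, or at least 10 counts in every library), a replicate block, only the 2 groups compared, a fold over 2 (the threshold of the study) and leaving out each library. The GC correction, an edgeR offset from a per-library lowess trend (span 0.3) on exonic GC, the equal number of ATAC-seq peaks and all alternatives for the difference between hairpins were chosen after seeing the data. Replicates differed beyond counting error (chi-square per degree of freedom 2.74 to 59.9 over 50 pairs), and no label says that they came from separate animals, so p-values measure the spread between these samples, which may be technical. At P7, chi-square per degree of freedom was 31.1 to 41.1 between replicate 1 and the other libraries, and 10.6 to 15.8 among those others. No batch is given by the labels.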

Additional observations from a re-analysis of the deposited data

Results flagged for a closer look

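Among 54 groups of 4 samples (the members and Cdkn2a at each passage, and the members' promoters at P1), 2 held a sample far from the other 3, where chance gives about 1 in 20. Both were replicate 2 of P7. Bmi1 was at 37.5 CPM there against 54.6 to 57.6 CPM in the other libraries, and Rnf2 at 29.2 CPM against 41 to 43.1 CPM. Without this library the decrease of Bmi1 from P1 to P7 and of Rnf2 from P3 to P7 missed the threshold (adjusted p = 0.0827 and 0.0538, edgeR).

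The effect of Atf3 knockdown differed between its hairpins in 5 of 10 members at an adjusted p under 0.05 (edgeR, sh6 against sh5), beside 52.6% of all genes. The log2 fold change of sh6 against sh5 was 0.25 ± 0.09 (SE) for Eed (adjusted p = 0.0394), -0.65 ± 0.09 for Suz12 (adjusted p = 0.000148) and -0.56 ± 0.10 for Bmi1 (adjusted p = 0.000778). It was 1.62 ± 0.27 for Cbx7 (adjusted p = 0.000638) and 1.14 ± 0.37 for Cbx8 (adjusted p = 0.0237). In each of these genes the 3 libraries of sh6 lay on 1 side of the 3 libraries of sh5. With the GC correction all 5 kept their direction and their call, at 0.34, -0.37, -0.23, 1.31 and 0.87. Eed missed the threshold when any of 5 of the 6 libraries was left out (0.19 to 0.26, adjusted p = 0.0768 to 0.133), and Cbx8 without replicate 1 of sh6 (0.90, adjusted p = 0.106).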

How the results depend on the processing

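The log2 fold changes of Ezh2 and Suz12 from P1 to P7 and from P3 to P7 stayed past the threshold under every alternative run. DESeq2 size factors changed no call of a member. With the GC correction, and also with the replicate block and GC correction together, the decreases of Suz12 and Bmi1 under E2f4 overexpression went to values near 0 (0.03, and 0.01 or 0.02 with the block) and Rnf2 was called higher (0.37), and the cause was not tested. With the GC correction alone or with the block, the counts of members called were 2 for P5 against P3 (6 without it) and 0 for Atf3 sh5 (3 without it). DESeq2 gave 5 for Atf3 sh5. Only the 2 groups compared gave 1 for P7 against P5, 1 for Atf3 sh5 and 3 for Atf3 sh6 against sh5. With a fold over 2, which is stricter by construction, the counts were 1 for P3 against P1, 1 for P5 against P3, 0 for P7 against P5, 2 for P7 against P3, 4 for P7 against P1, 3 for E2f4 overexpression, 2 for Atf3 sh6 against sh5 and 0 for each Tead1 and Atf3 hairpin against the control. Leaving out 1 library gave 2 to 3 for P3 against P1, 2 to 7 for P5 against P3, 1 to 3 for P7 against P5 (1 without replicate 1 of P5), 3 to 5 for P7 against P3 (3 without replicate 2 of P7), 6 to 9 for P7 against P1 and 5 to 8 for E2f4 overexpression, where the lone library left is assumed to vary like the others. It gave 0 to 1 for E2f4 sh1 (1 without its replicate 1), 0 to 1 for Tead1 sh3 (0 without replicate 1 or 3 of the control), 0 to 2 for Tead1 sh4 (0 without its replicate 1, and 1 without its replicate 3 or any control library), 1 to 4 for Atf3 sh5 (1 without its replicate 1 or 3, or control replicate 2 or 3), 2 to 4 for Atf3 sh6 (2 without any of its libraries, or control replicate 1 or 3), 0 for Tead1 sh4 against sh3 and 3 to 6 for Atf3 sh6 against sh5 (3 without replicate 1 of sh6). The shares of all genes called under these alternatives are not given here, except 21.4% for P7 against P1 with a fold over 2. The counts of members under them are therefore not set against a background. Promoters without overlap numbered 2 to 4 (4 without replicate 1 of P7), and 1 with equal numbers of peaks per sample, against 2 with all peaks.

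The main fit did not pair samples by replicate number, and the correlations do not decide whether the numbers pair them. In the passage series, same-numbered libraries of different passages had correlations of their deviations from -0.262 to 0.276, and 11 of 24 exceeded 0.1, with 0 of 3 in the E2f4 knockdown, 1 of 9 in the Tead1 knockdown and 2 of 9 in the Atf3 knockdown. Pairs with different numbers reached 0.245 in the passage series (72 pairs). The overexpression has 2 same-numbered pairs (0.142). With 2 libraries in each group, the other 2 pairs must have the opposite sign (-0.142). With the replicate block, 1 member, Ezh2, was called for E2f4 sh1 (-0.33, adjusted p = 0.0413), also with the GC correction, and the other counts stayed within 1.5 times. Depth limits Cbx7 most, with 9 to 97 counts per library.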

Other observations

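Of the genes that oppose Polycomb, Kdm6b, a demethylase of the H3K27 mark, was the 1 member of its list called higher at P7 than at P1 (log2 fold change 0.72 ± 0.14 (SE), adjusted p = 0.000135, edgeR). From P3 to P7 the change of Kdm6b was 0.21, with no call (adjusted p = 0.194). Yaf2, a subunit of variant PRC1, had the largest increase from P1 to P7 among the further PRC1 subunits (0.82 ± 0.11, adjusted p = 1.64e-06), and its change from P3 to P7 was 0.30 ± 0.10 (adjusted p = 0.0214). Both genes were chosen after their values were seen. Under E2f4 overexpression, Phf19, which fell with passage, was higher (0.95 ± 0.17, adjusted p = 0.000891), whereas Mtf2 was lower (-0.78 ± 0.14, adjusted p = 0.000712). The values of these 4 genes with the GC correction are not given here.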
